A study of Mus musculus with 6 samples.

Results

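The 10 genes described here, which kidney tubule cells are known to raise when injured or during repair, were followed across cell types in the renal cortex of wild type (WT) and *Prdm16* knockout (KO) mice. They were *Havcr1*, *Spp1*, *Clu*, *Vcam1*, *Krt8*, *Krt18*, *Krt19*, *Cd24a*, *Sox9* and *Sprr1a*. The list was set by gene symbol and not by a measured value, although earlier results of these data were known. All 10 were found in each of the 6 libraries, among 26903 genes in the files. The libraries came from 3 WT and 3 KO mice aged 9 months, all labelled male, with 1 mouse per library. In the KO mice an exon of *Prdm16* had been removed in every tissue with CRISPR-Cas9, which shifted the reading frame, so changes in the tubule cannot be told apart from changes that start elsewhere in the body. No strain and no treatment were labelled for these mice.

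When a tubule is damaged, surviving epithelial cells lose part of their specialised program, spread over the bare basement membrane and divide. During this period they make keratins and other stress proteins that quiet segments hold at low levels, secrete glycoproteins such as osteopontin and clusterin, and show surface molecules that attract leukocytes. Some cells return to their former state, while others keep the injury program and are found in fibrotic kidneys.

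The genes have different roles. *Havcr1* encodes kidney injury molecule KIM-1, a receptor for dying cells on the proximal tubule. *Spp1* encodes osteopontin and *Clu* encodes clusterin, a secreted chaperone. *Vcam1* encodes an adhesion molecule for leukocytes, and *Cd24a* a small surface glycoprotein of immature epithelium. *Krt8* and *Krt18* form the filament pair of simple epithelium, and *Krt19* is the keratin of duct-type epithelium. *Sox9* is a transcription factor of regenerating tubule cells. *Sprr1a* encodes a small proline-rich protein best known from the cornified envelope of skin and from regenerating nerve. All 10 lie on mouse autosomes of GRCm38 (mm10). *Krt8* (chr15:101996698-102004482, minus strand) and *Krt18* (chr15:102028180-102032027, plus strand) are neighbours that point away from each other, with 23.7 kb between them. *Sprr1a* lies at chr3:92483952-92485895 on the minus strand and *Spp1* at chr5:104435118-104441050 on the plus strand.

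The promoters of 4 of the genes whose levels differed between genotypes in a cell class are shown, because these genes moved in different classes. Each run is the 250 bases before the RefSeq transcript start on GRCm38.p6, written 5′ to 3′ on the gene's strand. Capitals mark an AP-1 motif (TGANTCA) or a TATA box (TATAAA), each searched on both strands.
Sprr1a, chr3:92485882-92486131, minus strand: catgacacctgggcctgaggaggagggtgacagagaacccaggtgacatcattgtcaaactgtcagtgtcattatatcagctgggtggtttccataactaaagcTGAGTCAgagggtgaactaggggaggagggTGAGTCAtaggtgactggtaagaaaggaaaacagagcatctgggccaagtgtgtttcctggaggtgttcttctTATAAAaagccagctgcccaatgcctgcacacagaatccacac
Spp1, first of 2 starts, chr5:104434861-104435110, plus strand: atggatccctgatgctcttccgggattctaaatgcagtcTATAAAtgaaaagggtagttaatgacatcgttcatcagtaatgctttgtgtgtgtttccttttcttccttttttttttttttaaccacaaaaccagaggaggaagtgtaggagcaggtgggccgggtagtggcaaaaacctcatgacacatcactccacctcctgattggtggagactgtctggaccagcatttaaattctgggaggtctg
Krt8, chr15:102004343-102004592, minus strand: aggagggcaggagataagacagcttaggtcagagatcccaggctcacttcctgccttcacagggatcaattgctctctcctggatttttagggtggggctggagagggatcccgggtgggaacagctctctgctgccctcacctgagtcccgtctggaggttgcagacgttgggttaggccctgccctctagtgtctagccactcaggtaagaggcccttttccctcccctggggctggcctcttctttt
Krt18, chr15:102027966-102028215, plus strand: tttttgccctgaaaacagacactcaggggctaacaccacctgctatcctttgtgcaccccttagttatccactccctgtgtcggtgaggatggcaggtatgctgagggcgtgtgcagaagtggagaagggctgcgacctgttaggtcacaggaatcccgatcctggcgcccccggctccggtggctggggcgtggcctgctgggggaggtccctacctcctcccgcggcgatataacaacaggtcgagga

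The *Sprr1a* run held 2 AP-1 motifs, which begin 146 and 116 bases before the start, and a TATA box 43 bases before it. Among 32851 RefSeq windows of this length, 6.75% held an AP-1 motif, 0.338% held at least 2, and 12.4% held a TATA box. The *Spp1* run held a TATA box sequence 211 bases before the start and no AP-1 motif. The *Krt8* and *Krt18* runs held neither. RefSeq entries were found for 5 of the 10 genes. A motif match is a description of the sequence and not evidence of binding.

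After filtering, 28488 cells remained, between 3538 and 6276 per library, with 23107708 to 35366031 UMIs (unique molecular identifiers, 1 per captured transcript) in kept cells. KO replicates 2 and 3, with 23107708 and 24866288 UMIs, lay below every WT library, the lowest of which had 31330942. Median UMIs per cell lay between 2372.5 and 3568.5. Libraries shared between 0 and 2 cell barcodes over the 15 pairs. The 3′ UMI counts of *Prdm16* itself were between 26.7 and 32.4 CPM (UMI counts scaled to a common library total) in WT and between 21.0 and 24.9 CPM in KO libraries. These reads do not cover the deleted exon and so check nothing. *Xist*, which is made from the inactive X chromosome of females, was at 297 CPM in the second WT library and 306 CPM in the first KO library, against at most 0.216 CPM in the other 4 libraries, so these 2 libraries went against their label. Tests within a class were repeated without both libraries. Those values are printed for *Krt8* in LOH-like cells and for *Spp1* and *Clu* in PC-like cells. Comparisons of effects between classes were not repeated without both.

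Cells were put into classes by clustering and by marker genes, and a class is called "X-like" because the files used here held no annotation of cells. The 13 classes tested were proximal tubule (PCT), thin limb and parietal, thick ascending limb of the loop of Henle (LOH), macula densa, distal convoluted tubule (DCT), connecting tubule (CNT), principal cells (PC) and intercalated cells (IC) of the collecting duct, podocyte, endothelial, stromal and mesangial, macrophage, and T and NK. Only 527 cells were PCT-like, with 11 in the thinnest library, so the segment in which KIM-1 is best known was nearly absent. Levels are CPM of the UMIs summed over the cells of a class in a library. A class with fewer cells of one state and a class with less RNA per cell cannot be told apart in such sums. UMIs do not scale with gene length, yet capture differs between genes, so levels were compared within a gene and not between genes.

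The 10 genes occupied different classes, as the map of mean levels shows.

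**Figure D1:**
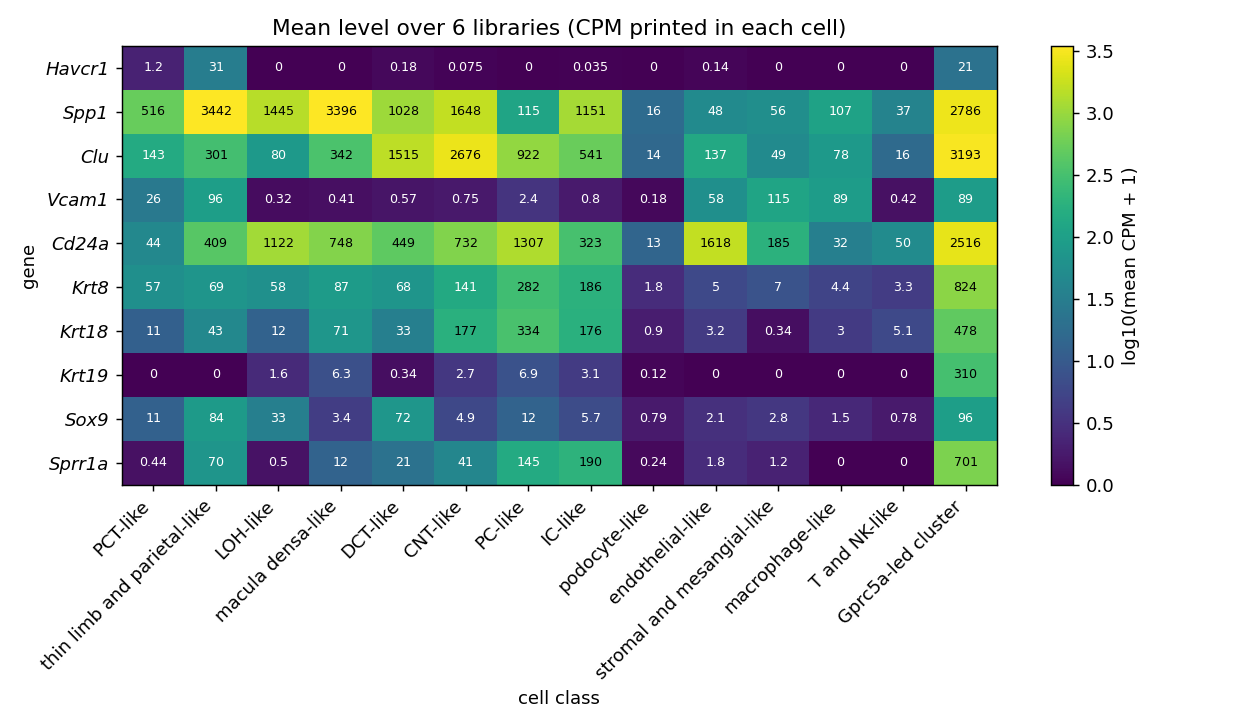
Mean CPM over the 6 libraries of each gene (rows) in the 13 tested classes and in the small cluster led by *Gprc5a* (columns), with colour on the scale log10(mean CPM + 1) and the CPM printed in each field. *Krt8*, *Krt18* and *Krt19* were highest in the *Gprc5a*-led cluster, while *Vcam1* lay mainly in stromal, thin limb, macrophage and endothelial cells.

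*Havcr1* was almost absent from kept cells. Barcodes with at most 100 UMIs held 9 *Havcr1* UMIs, and other removed barcodes were not counted. The kept cells of the 6 libraries held 44, of which 42 came from WT and 2 from KO mice. A single thin limb-like cell of WT replicate 1 gave 24 of them and a single cell of the *Gprc5a*-led cluster in the same library gave 8. No LOH-like, PC-like, macula densa-like or podocyte-like cell held one. *Havcr1* passed the filter on low counts in 0 classes, and no difference between genotypes could be tested.

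*Spp1* was highest in thin limb-like cells, at 3442 ± 2964 CPM (SD, n = 6), and in macula densa-like cells, at 3396 ± 943 CPM. These values overlapped each other, and the macula densa level lay above every library of the next class. CNT-like, LOH-like, IC-like and DCT-like cells followed with means between 1028 and 1648 CPM, and each neighbour in this order overlapped the next. PC-like cells had 115 ± 80.6 CPM, below every tubule class before them. Podocyte-like cells were lowest with 16.4 ± 8.70 CPM.

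*Clu* had another order along the distal nephron. CNT-like cells had 2676 ± 549 CPM, all 6 libraries above those of DCT-like cells at 1515 ± 171 CPM. PC-like cells had 922 ± 360 CPM and overlapped both DCT-like and IC-like cells. LOH-like cells, rich in *Spp1*, had 80.2 ± 10.7 CPM of *Clu*, below every endothelial library at 137 ± 23.3 CPM.

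*Vcam1* was found mostly outside the tubule, with a mean of 20.8% of its UMIs in tubule classes. Stromal and mesangial-like cells had 115 ± 73.3 CPM, thin limb-like cells 95.6 ± 71.1, macrophage-like cells 89.0 ± 29.8 and endothelial-like cells 57.6 ± 48.6 CPM. All 4 ranges overlapped in turn. LOH-like, DCT-like, CNT-like, IC-like and macula densa-like cells had means of 0.317 to 0.802 CPM. *Cd24a* was high in endothelial-like cells at 1618 ± 108 CPM, in PC-like cells at 1307 ± 175 and in LOH-like cells at 1122 ± 167 CPM, 3 classes whose ranges overlapped in turn.

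Both simple-epithelium keratins followed the collecting duct. *Krt18* was at 334 ± 64.3 CPM in PC-like cells, above all libraries of CNT-like cells at 177 ± 40.9 CPM. *Krt8* was at 282 ± 75.7 CPM in PC-like cells and overlapped IC-like cells at 186 ± 46.6 CPM. LOH-like cells had 57.9 ± 13.6 CPM of *Krt8* and 12.1 ± 6.43 CPM of *Krt18*. Over the 78 class-by-library profiles, the log2 levels of both genes had a Pearson r of 0.855, given as a description since profiles of a library share its depth. *Krt19* was at most 6.89 ± 4.83 CPM in a tested class, and at 0 in PCT-like, thin limb-like, endothelial-like, stromal-like, macrophage-like and T and NK-like cells. *Sox9* was at 84.0 ± 81.1 CPM in thin limb-like, 71.6 ± 39.4 in DCT-like and 32.6 ± 15.1 CPM in LOH-like cells, with ranges that overlapped in turn. *Sprr1a* was at 190 ± 150 CPM in IC-like and 145 ± 227 CPM in PC-like cells, where the SD of the second exceeded its mean.

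Genes with the profile most like each member, among 10903 genes and over the same 78 profiles, were listed by Pearson r as a description. *Krt8* was most like *Sh3gl2* (r = 0.916) and *Cdh16* (0.899). *Krt18* was most like the tight junction genes *Cldn3* (0.877) and *Cldn7* (0.866), and *Mal2* (0.856). *Spp1* followed *Fxyd2* (0.840), a regulator of the sodium pump, with *Paqr5* (0.822) and *Pcbd1* (0.813). *Clu* followed *S100a1* (0.833), *Hoxd8* (0.823) and *C77080* (0.818). *Cd24a* followed *Hoxb6* (0.870), *Hoxb9* (0.846) and *Capn5* (0.845). *Vcam1* followed *Itga9* (0.891), *Cmtm3* (0.880) and *Sdc3* (0.870). *Krt19* was most like *Muc1* (0.808), *Ehf* (0.784) and *Pappa* (0.783). *Sprr1a* was most like *Rnasek* (0.729), *Cldn4* (0.726) and *Slc44a3* (0.691). *Sox9* had weaker matches, with *Epb41l3* (0.696), *Gabarapl1* (0.667) and *Nrg1* (0.654), and *Havcr1* reached 0.547 with *Lypd2*, followed by *Gc* and *Fst*, on the few UMIs above.

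The comparison of genotypes asked whether these genes differed between WT and KO mice within a class. Counts summed per library and class were tested with the quasi-likelihood test of edgeR, two-sided, with Benjamini-Hochberg adjustment over all genes of the class and a threshold of 0.05. Of 68 tests of a gene in a class, 9 passed, or 13.2%, where 1.54% of the 96467 tests over all genes did. These shares are a description, since the genes were chosen with earlier results known and the same gene recurs over classes. KO levels were higher in 5 of these and lower in 4, and the direction followed the class. In LOH-like cells *Krt18*, *Krt8* and *Spp1* were higher in KO mice, and in macula densa-like cells *Spp1* and *Clu*. In PC-like cells *Sprr1a*, *Spp1* and *Clu* were lower in KO mice, and in DCT-like cells *Sprr1a*. Both *Sprr1a* tests passed the low count filter through the WT libraries alone. *Cd24a*, *Sox9*, *Krt19* and *Vcam1* passed in no class with edgeR, although single tests of theirs reached an unadjusted p below 0.05.

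**Figure D2:**
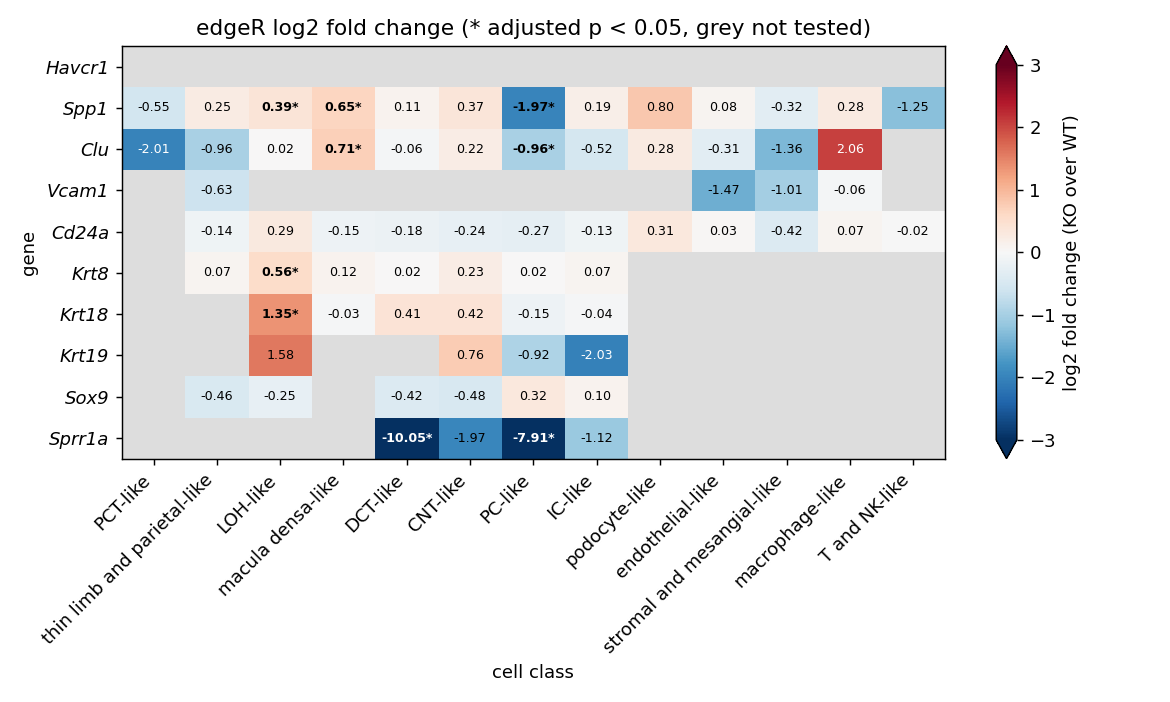
Log2 fold change of KO over WT from edgeR for each gene (rows) in each tested class (columns). Bold values with an asterisk had an adjusted p under 0.05 and grey fields did not pass the low count filter; *Sprr1a* had no KO count in DCT-like cells and nearly none in PC-like cells, so its values there are no measure of size.

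In LOH-like cells 3 of the 7 genes that passed the filter rose, where 4.38% of the class's genes were called. Their median log2 fold change was 0.39, beside 0.00 over all 10792 genes tested. *Krt18* was at 7.24, 7.52 and 5.70 CPM in the WT libraries 1 to 3 and at 21.0, 12.4 and 18.5 CPM in KO libraries 1 to 3. Every KO library lay above every WT library, and the rise was 1.35 ± 0.21 (SE) on the log2 scale (edgeR adjusted p = 0.00372). It was called in 17 of 17 alternatives that gave a value, which include leaving out each library. With the 30% mitochondrial limit, where only 4241 genes of the class passed the filter, *Krt18* gave no value. Its rise was therefore not checked at that limit.

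*Krt8*, the filament partner, was at 46.7, 48.2 and 45.5 CPM in WT mice and at 71.2, 58.9 and 77.0 CPM in KO LOH-like cells. The groups were apart, with a narrow WT range. The rise was 0.56 ± 0.11 (log2, SE; edgeR adjusted p = 0.0144). Without KO replicate 3 the adjusted p was 0.0777 and without WT replicate 1 it was 0.0546. Without both libraries that carried *Xist* it was 0.0892, at a log2 change of 0.58. With a 30% mitochondrial limit, which left 824 LOH-like cells, the difference was gone (log2 −0.02, edgeR adjusted p = 0.998).

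*Spp1* was at 1110, 1418 and 1222 CPM in WT mice and at 1720, 1504 and 1693 CPM in KO LOH-like cells, also without overlap. The rise of 0.39 ± 0.10 (log2, SE) was close to the threshold (edgeR adjusted p = 0.0479) and was lost in 11 of 18 alternatives. The adjusted p reached 0.609 among these alternatives, and was 0.107 to 0.173 when replicate 1 or 3 of either genotype was left out. With the replicate number as a block it was 0.101. These were the only 3 of the 7 genes whose groups did not overlap, against 21.7% of all genes in the class.

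The other LOH-like values stayed short of the threshold. *Cd24a*, called in no class, was at 910, 937 and 1180 CPM in WT mice and 1232, 1143 and 1331 CPM in KO mice (edgeR adjusted p = 0.212). *Krt19* was at 0.362, 1.76 and 0.398 CPM in WT mice and 2.32, 1.47 and 3.54 CPM in KO mice (edgeR adjusted p = 0.151). *Clu* (log2 0.02) and *Sox9* (−0.25) overlapped widely.

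LOH-like cells came from 2 clusters. One was led by *Cldn10*, the claudin of the sodium-selective paracellular route, and held 1498 cells, and the other by *Tmem207* and *Cldn16*, which serve magnesium and calcium transport, and held 2042. In the *Cldn10*-led cluster *Krt18* was at 8.69, 8.80 and 8.56 CPM in WT mice and 28.9, 19.1 and 29.9 CPM in KO mice. In the *Cldn16*-led cluster it was at 4.82, 4.67 and 1.34 CPM in WT mice and 8.13, 2.78 and 4.71 CPM in KO mice, with overlap. *Krt8* and *Spp1* were apart in both clusters, and *Krt8* was at 48.9 to 50.7 CPM in WT against 63.0 to 91.1 CPM in KO cells of the first. Whether the genotype effect differed between these clusters was not tested.

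The share of cells with a UMI, after each cell was thinned to 1000 UMIs, gives the same levels by another measure. *Spp1* was seen in 61.3, 65.7 and 63.5% of WT and 75.1, 70.2 and 76.6% of KO LOH-like cells, while podocyte-like cells, which lack it, gave 0.680 to 2.62%. *Krt8* was seen in 4.98, 4.26 and 3.13% of WT and 6.94, 6.38 and 6.72% of KO LOH-like cells, against at most 0.227% in podocyte-like cells. *Krt18* was seen in 0.835 to 1.35% of WT and 0.851 to 2.36% of KO cells, which overlapped, and unthinned in 4.58 to 6.79% of WT and 8.96 to 14.8% of KO cells. Median UMIs of LOH-like cells ranged from 2897 to 13271 between libraries, so unthinned shares also move with depth. With 3 libraries a group the exact permutation test cannot go below p = 0.1, and over 102 thinned tests the smallest adjusted p was 0.68.

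Markers of other cells moved with these rises. The 10 IC markers summed to 39.4 to 51.2 CPM in WT mice and 61.7 to 146 CPM in KO LOH-like cells, all 10 detected. The 7 neutrophil markers summed to 0.90 to 1.44 CPM in WT mice and 2.48 to 8.30 CPM in KO cells. The 8 PC markers moved the other way, from 39.9 to 57.7 CPM in WT to 22.8 to 30.9 CPM in KO cells. *Krt18* was at 176 CPM in IC-like cells. In barcodes with at most 100 UMIs, which mostly hold free RNA, it was at 36.8, 46.4 and 45.2 CPM in WT mice and 47.6, 26.7 and 48.2 CPM in KO libraries, above each LOH-like value and with overlap between genotypes. Their part in the result was not tested.

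**Figure D3:**
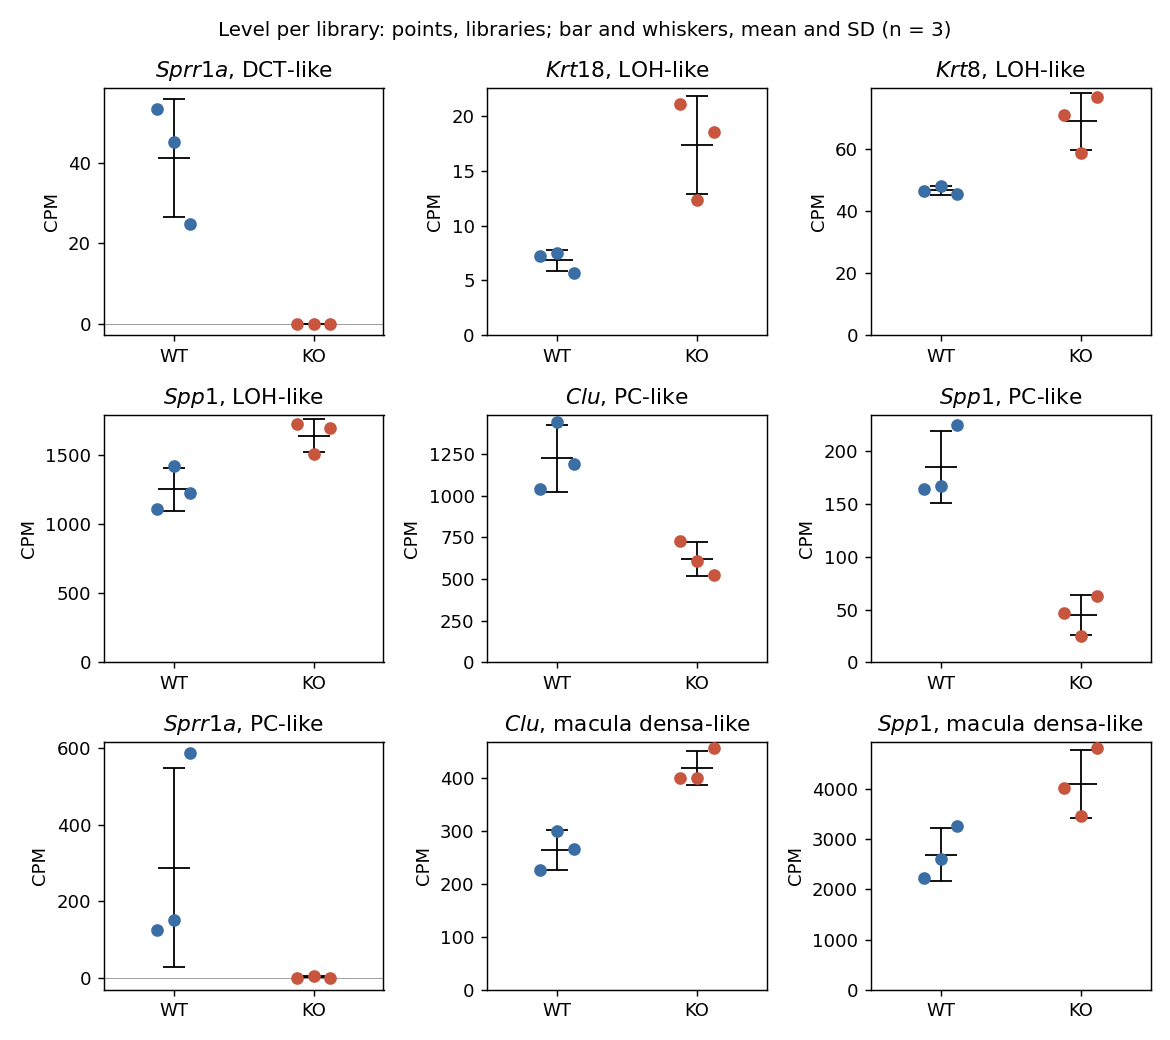
CPM per library for the 9 gene and class pairs called by edgeR, WT in blue and KO in red, with mean and SD (n = 3) as bar and whiskers. In each of the 9 panels the 3 KO points lie on 1 side of the 3 WT points; *Sprr1a* in PC-like cells has the widest WT spread, from 125 to 587 CPM.

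PC-like cells changed in the other direction. Of 8 genes tested, 3 fell, where 2.35% of the class's genes were called, and the median log2 fold change was −0.59 beside 0.00 over all genes. There were 314, 277 and 320 PC-like cells in the WT libraries and 134, 107 and 185 in the KO libraries. *Sprr1a* was at 125, 152 and 587 CPM in WT mice and at 0, 4.72 and 0 CPM in KO libraries, from 289, 374 and 1309 UMIs against 0, 4 and 0. No KO library came near the lowest WT library. The call had an edgeR adjusted p of 0.00203 and held in 18 of 18 alternatives, yet the gene passed the low count filter through its WT libraries alone. The fitted size, −7.91 on the log2 scale, rests on 4 KO UMIs and is no measure of the fold.

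These UMIs came from few cells. In WT libraries 11 of 314, 23 of 277 and 55 of 320 PC-like cells held at least 1 *Sprr1a* UMI, and the highest single cells held 67, 105 and 165. In KO libraries 0 of 134, 2 of 107 and 0 of 185 did. Thinned to 1000 UMIs per cell, the shares were 2.54, 6.17 and 12.4% in WT and 0% in each KO library, while the KO cells were deeper, with medians of 6842 to 8182 UMIs against 4879 to 6323. Unthinned they were 3.50, 8.30 and 17.2% in WT and 0, 1.87 and 0% in KO libraries. Podocyte-like cells, which should lack the transcript, gave 0% in all 6 libraries when thinned and at most 0.393% unthinned. *Sprr1a* in barcodes with at most 100 UMIs was at 9.24, 21.6 and 40.3 CPM in WT mice and 12.5, 4.52 and 15.8 CPM in KO libraries, with overlap.

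**Figure D4:**
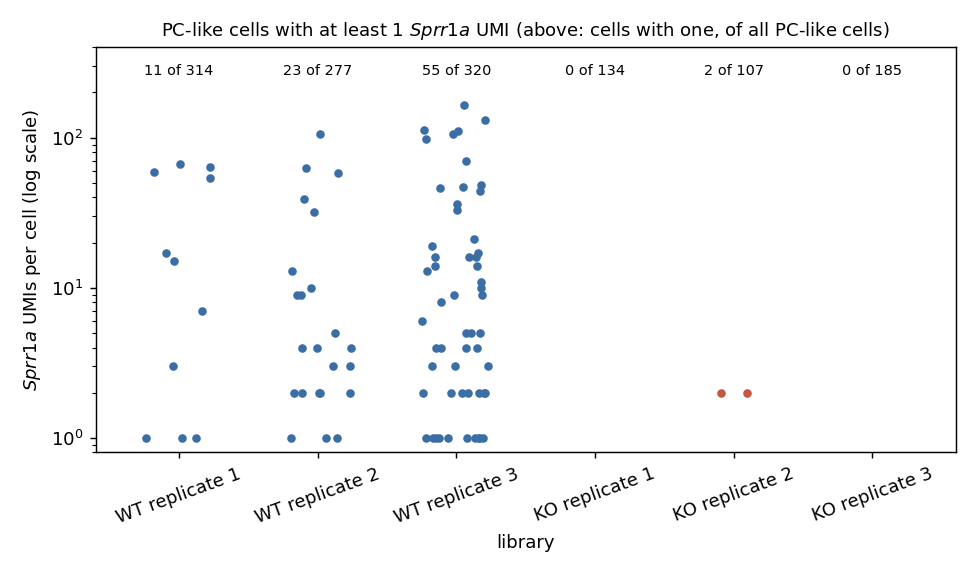
*Sprr1a* UMIs per cell (log scale) for each PC-like cell with at least 1 such UMI, by library, with the number of these cells of all PC-like cells printed above. The WT libraries hold 11, 23 and 55 such cells with up to 67, 105 and 165 UMIs, and KO replicate 2 holds 2 cells with 2 UMIs each.

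PC-like cells of WT mice with at least 3 *Sprr1a* UMIs (8, 15 and 38 cells) also differed from those with 0 in the other genes, given here as a description with no test. *Clu* was at 9385, 6188 and 3876 CPM in the former and at 627, 953 and 678 CPM in the latter. *Vcam1* was at 44.7, 27.9 and 56.8 CPM against 0, 0.474 and 0.565 CPM. *Krt18* was 1.57 to 2.57-fold higher, *Krt8* 1.84 to 2.19-fold, *Sox9* 2.46 to 4.83-fold, *Spp1* 1.45 to 5.75-fold and *Cd24a* 1.20 to 1.41-fold. The water channel gene *Aqp2*, the defining PC marker, was at 0.605 to 0.721 of its level in cells without *Sprr1a*. Cells with *Sprr1a* also had more UMIs, with medians of 12520, 10180 and 8882 against 4704, 6162 and 4953.

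*Vcam1* in PC-like cells was at 2.16, 2.84 and 9.42 CPM in WT, from 33 UMIs, and at 0 in each KO library. The 3520287 UMIs of KO PC-like cells allow up to 3 counts. With UMIs counted as independent, the pooled WT level was at least 5.53-fold higher, and at least 2.95-fold without WT replicate 3, where 1 cell held 16 of the 33 UMIs. The 33 UMIs came from only 1, 4 and 4 cells of WT replicates 1 to 3, so these bounds do not measure the genotype difference. This gene did not pass the filter in PC-like cells and was not tested there.

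*Spp1* in PC-like cells was at 164, 166 and 224 CPM in WT mice and at 47.0, 24.8 and 63.0 CPM in KO mice. Every KO library lay far under the lowest WT library. It fell by 1.97 ± 0.27 on the log2 scale (SE; edgeR adjusted p = 0.00276). The fall of *Spp1* held with PC-like cells that had no *Sprr1a* UMI, at −1.70 (edgeR adjusted p = 0.00545), a selection of cells chosen after the data were seen. Without both *Xist* libraries its adjusted p was 0.0516 at a log2 change of −2.03.

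*Clu* in PC-like cells was at 1042, 1439 and 1188 CPM in WT mice and at 728, 607 and 527 CPM in KO mice. The groups did not overlap, and *Clu* fell by 0.96 ± 0.16 (log2, SE; edgeR adjusted p = 0.0075). The 5 cells with most *Clu* held 52.5, 38.5 and 39.7% of its UMIs in the WT and 32.0, 27.8 and 32.9% in the KO libraries. The share of cells with *Clu* overlapped, at 27.9, 38.3 and 34.1% in WT and 39.2, 40.7 and 24.9% in KO libraries when thinned, against at most 1.86% in podocyte-like cells, and at 59.9 to 67.5% and 62.2 to 79.1% unthinned. Among PC-like cells with no *Sprr1a* UMI its log2 change was −0.25 (edgeR adjusted p = 0.584). Without both *Xist* libraries the adjusted p of *Clu* was 0.0693 at −0.94.

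The falls of *Spp1* and *Clu* depended on which cells were taken as principal cells. With no limit on mitochondrial UMIs the class held 3789 cells, and the log2 changes were 0.41 for *Spp1* and 0.17 for *Clu*. With classes from marker scores per cell it held 3160 cells, and they were 0.11 and 0.20. None of these 4 values passed the test (edgeR adjusted p of 0.24 to 0.883). *Sprr1a* fell under both definitions. *Calb1*, a connecting tubule marker, was at 931.5 to 2908 CPM in the class with no mitochondrial limit and at 858 to 2071 CPM in the one from marker scores, against 574 to 1164 CPM in the narrower class, and its part in the result was not tested.

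*Krt8*, *Krt18*, *Krt19*, *Cd24a* and *Sox9* were not called in PC-like cells. *Krt18* was at 256, 374 and 432 CPM in WT mice and 281, 313 and 351 CPM in KO mice, and *Krt8* at 202, 280 and 365 against 210, 256 and 379 CPM, both with full overlap. Groups were apart for 4 of the 8 genes, including *Cd24a* at 1300, 1539 and 1476 CPM against 1123, 1116 and 1288 CPM (edgeR adjusted p = 0.438), where 18.4% of all genes in the class were apart. The 10 IC markers summed to 1123 to 1296 CPM in WT mice and 750 to 1073 CPM in KO PC-like cells, and the 13 PCT markers to 12.6 to 111 CPM and 4.72 to 6.60 CPM, 9 of them detected with *Cubn*, *Slc5a2*, *Slc5a12* and *Slc13a3* at 0. The 5 parietal epithelial markers summed to 282 to 308 and 172 to 236 CPM, and rises were seen for the 7 thin limb markers, 512 to 540 against 603 to 621 CPM, and the 5 monocyte markers, 0.87 to 6.09 against 11.8 to 83.3 CPM, with *Ccr2* and *F13a1* at 0. The 6 CNT markers overlapped. Their part in the results was not tested.

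In DCT-like cells 1 of 7 genes was called, where 0.972% of all genes were. *Sprr1a* was at 53.4, 45.3 and 24.9 CPM in WT mice and at 0 in each KO library. The edgeR adjusted p was 0.000389, and the gene passed the low count filter through its WT libraries alone. With 553 WT UMIs and a floor of 3 counts over the 5723455 KO UMIs, the pooled WT level was at least 77.9-fold higher, if UMIs are counted as independent. These UMIs came from only 3, 14 and 5 cells, and in WT replicate 1 a single cell held 214 of the 217. The bound therefore does not measure the size of the genotype difference. The call was lost with a mitochondrial limit of 30%, with no limit, with no doublet removal and with 30 principal components, where adjusted p ranged from 0.363 to 0.823 and the log2 changes were only −2.08, −1.01, −1.98 and −0.39. The 6 CNT markers summed to 17860 to 22160 CPM in WT mice and 12560 to 15230 CPM in KO DCT-like cells, and a DCT-like cluster led by *Calb1* gave 79, 60 and 73 of the WT and 29, 22 and 15 of the KO cells. Of the 553 *Sprr1a* UMIs, 551 lay in the other DCT-like cluster. The 8 DCT markers summed to 4078 to 4568 CPM in WT and 4899 to 5345 CPM in KO cells, the 7 neutrophil markers to 0.66 to 1.72 and 5.04 to 18.7 CPM, and the 5 monocyte markers to 0.87 to 1.48 and 0 to 0.63 CPM. The part of these markers in the result was not tested. *Spp1*, *Clu*, *Krt8*, *Krt18*, *Sox9* and *Cd24a* had log2 changes between −0.42 and 0.41 in these cells with adjusted p of at least 0.573.

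The *Sprr1a* values of CNT-like and IC-like cells were less separated. In CNT-like cells *Sprr1a* was at 26.6, 42.9 and 127 CPM in WT mice and 19.4, 1.74 and 25.7 CPM in KO mice (edgeR adjusted p = 0.099). In IC-like cells, which held 54.3% of all *Sprr1a* UMIs, it was at 53.5, 278 and 454 CPM in WT mice and 111, 103 and 140 CPM in KO mice, with overlap (edgeR adjusted p = 0.483). KO cells therefore held *Sprr1a* transcripts in IC-like cells, 723, 399 and 529 UMIs in the 3 libraries.

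Macula densa-like cells, which sense salt at the end of the thick limb, numbered 331. Of 5 genes tested 2 rose, where 1.02% of the class's genes were called. *Spp1* was at 2218, 2599 and 3255 CPM in WT mice and 4031, 3461 and 4809 CPM in KO mice, 0.65 ± 0.16 higher (log2, SE; edgeR adjusted p = 0.0385). *Clu* was at 226, 301 and 266 CPM in WT mice and 401, 401 and 457 CPM in KO mice, 0.71 ± 0.16 higher (log2, SE; edgeR adjusted p = 0.0261). Groups were apart for both genes, yet each call was lost in 11 of 18 alternatives. With a 30% mitochondrial limit the direction turned, to log2 changes of −0.28 for *Spp1* and −1.27 for *Clu*, neither called. Among the others was DESeq2 (adjusted p = 0.073 and 0.0721). Leaving out KO replicate 3 gave adjusted p of 0.325 for *Spp1* and 0.19 for *Clu*, and leaving out WT replicate 1 gave 0.193 and 0.154. The 8 PC markers summed to 58.4 to 207 CPM in WT mice and 24.1 to 51.1 CPM in KO cells, with *Aqp4* at 0, and their part in the results was not tested.

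Outside these classes no gene of the 10 passed with edgeR. *Vcam1* in endothelial-like cells was at 41.6, 153 and 55.9 CPM in WT mice and 20.6, 25.9 and 48.5 CPM in KO mice, with overlap (edgeR adjusted p = 0.271). *Clu* in IC-like cells was at 701, 734 and 494 CPM in WT mice and 512, 371 and 432 CPM in KO mice (edgeR adjusted p = 0.235). In podocyte-like cells the 3 genes that passed the filter, *Spp1*, *Clu* and *Cd24a*, were at no more than 30.4 CPM in any library.

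Effects were compared between classes with the genotype-by-class interaction in edgeR, in a model with a term per mouse. Between PC-like and LOH-like cells the effect differed for 5 of 8 genes, where 2.48% of all genes were called. *Spp1* had the lowest adjusted p (log2 difference −2.35 ± 0.22 SE, edgeR adjusted p = 8.99e-06). *Krt18* differed by −1.46 ± 0.26 (edgeR adjusted p = 0.00314), *Clu* by −0.96 ± 0.16 (edgeR adjusted p = 0.00265) and *Cd24a* by −0.54 ± 0.12 (edgeR adjusted p = 0.022). *Sprr1a* also passed (edgeR adjusted p = 0.0277), with a size that rests on LOH-like levels of at most 2.12 CPM. It entered this test through its counts in WT PC-like cells. Between CNT-like and LOH-like cells *Krt18* alone of 8 differed, by −0.94 ± 0.25 (edgeR adjusted p = 0.039), where 3.2% of all genes did. Between DCT-like and LOH-like cells 0 of 7 passed in edgeR, where 1.03% of all genes did, and 0 with DESeq2, where 0.287% did. In edgeR 5 of the 7 had an unadjusted p below 0.05, as did 1184 of all 11151 genes. All 3 comparisons share the LOH-like cells of the same 6 libraries.

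Counts were also summed over the tubule classes. Of 9 genes tested in the tubule sum, 0 passed with edgeR, where 1.66% of all genes did. With DESeq2 1 passed, where 4.61% of all genes did. In edgeR 3 of the 9 had an unadjusted p below 0.05, as did 2134 of all 13368 genes. *Spp1* was at 1107, 1156 and 1084 CPM in WT mice and 1537, 1357 and 1593 CPM in KO mice (log2 0.46 ± 0.10 SE, edgeR adjusted p = 0.0647), and *Sprr1a* at 42.1, 85.4 and 159 CPM against 38.7, 26.8 and 31.8 CPM (edgeR adjusted p = 0.132). Groups were apart for 3 of the 9 genes, where 19.8% of all genes were. Over all kept cells 0 of 9 passed with edgeR, where 1.07% of all genes did, and 1 with DESeq2, where 5.36% did. In edgeR 3 of the 9 had an unadjusted p below 0.05, as did 2324 of all 15178 genes. Groups were apart for 4 of them, where 18.6% of all genes were. These sums also move with the shares of classes.

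Other genes of injury and repair were taken from 8 lists, 80 genes in all, of which 74 were in the files. In LOH-like cells 47 were tested, 4 rose and 4 fell, where 4.38% of all genes in the class were called, and the median log2 change was 0.07. *Anxa1*, which codes for annexin A1, an anti-inflammatory protein, rose from 0.80 to 1.09 CPM in WT to 2.72 to 4.05 CPM in KO mice (edgeR adjusted p = 0.0205). *Hbegf*, an epithelial growth factor, rose from 129 to 196 CPM to 211 to 294 CPM (edgeR adjusted p = 0.0471). *Bhlhe40*, a transcriptional repressor of the clock, rose by 0.64 (log2; edgeR adjusted p = 0.0393). *Itgb6*, the integrin subunit that activates TGF-beta, fell from 95.3 to 108 CPM to 32.2 to 44.5 CPM (edgeR adjusted p = 0.000106). *Lgals3*, encoding galectin-3, fell by 0.83 (log2; edgeR adjusted p = 0.00107) and *Cdh6*, a cadherin of the developing nephron, by 0.65 (log2; edgeR adjusted p = 0.00358).

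In PC-like cells 47 of these genes were tested, 3 rose and 6 fell, where 2.35% of all genes in the class were called, and the median log2 change was −0.29. *Lcn2*, the urinary injury marker NGAL, was at 98.7, 74.3 and 91.1 CPM in WT mice and 1343, 334 and 346 CPM in KO mice (log2 2.94 ± 0.44 SE, edgeR adjusted p = 0.00501). In these class sums its genotype change was opposite to those of *Spp1*, *Clu* and *Sprr1a*. Among WT PC-like cells, however, *Lcn2* was 1.91 to 4.75-fold higher in those with at least 3 *Sprr1a* UMIs than in those with 0. *Ccn2* and *Timp2* also rose (log2 1.49 and 0.82). *Sprr2f*, another small proline-rich gene with near-identical relatives, was at 29.4, 81.6 and 62.4 CPM in WT mice and 0, 0 and 10.3 CPM in KO mice (edgeR adjusted p = 0.0121). *Cdh6* and *Tmsb10*, an actin-binding gene, fell as well (edgeR adjusted p = 0.0118 and 0.000788). The KO counts of *Sprr2f* and *Cdh6* alone would not have passed the low count filter.

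In CNT-like cells 45 were tested, 4 rose and 6 fell, where 3.2% of the class's genes were called. None of the 10 genes followed here was called there with edgeR, and 0 with DESeq2, where 2.79% of all genes were. In edgeR 3 of the 8 tested had an unadjusted p below 0.05, as did 1354 of all 10289 genes. *Krt80*, a filament keratin, was at 6.60, 6.81 and 4.66 CPM in WT mice and 40.5, 66.1 and 51.0 CPM in KO mice (log2 3.10 ± 0.23 SE, edgeR adjusted p = 6.53e-06). *Krt23* was at 4.15, 9.42 and 4.35 CPM against 23.3, 16.1 and 21.5 CPM (edgeR adjusted p = 0.00235). *Timp2* rose too (log2 1.08), while *Tmsb10*, *Myc* and *Lhx1* fell (log2 −1.52, −1.18 and −0.89). In CNT-like cells the CNT markers summed to 46350 to 56170 CPM in WT and 36980 to 46350 CPM in KO libraries, IC markers were also lower, at 1006 to 1280 and 757 to 973 CPM, and thin limb, neutrophil and monocyte markers were higher in KO libraries. Their part in the result was not tested. In DCT-like cells 43 were tested, 0 rose and 4 fell, where 0.972% of all genes were called, led by *Myc*, *Tmsb10* and *Gdf15* (log2 −2.36, −1.71 and −1.28).

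In macula densa-like cells 37 were tested, *Cxcl1* and *Lcn2* were among those that rose (log2 2.57 and 2.42), and 0 fell. In podocyte-like cells 42 were tested, and *S100a6* and *Icam1* rose (log2 3.66 and 1.57), where 1.93% of all genes were called. In IC-like cells 0 of 46 were called by edgeR, where 0.573% of all genes were. An unadjusted p below 0.05 was reached by 19 of the 46, and by 1082 of all 10463 genes.

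A small cluster held the highest keratin levels. It was led by *Gprc5a*, *Krt19*, *Sfn* and *Psca*, counted 98 cells and stayed unnamed, since its leading genes belonged to no single class. It counted 2, 10 and 14 cells in the WT and 14, 22 and 36 cells in the KO libraries, on average 0.182 ± 0.136% of WT and 0.596 ± 0.399% of KO cells (SD, n = 3; exact permutation test, p = 0.2). These shares overlapped. Since genes of the cluster were used to form it, the levels below are a description.

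This cluster was 0.344% of all cells and held 59.0% of all *Krt19* UMIs, 6.88% of those of *Krt8* and 4.10% of those of *Krt18*. *Krt19* was at 154, 229 and 315 CPM in its WT cells and at 377, 345 and 441 CPM in its KO cells. With cells pooled over libraries, it ranked first of 18 groups of cells for *Cd24a*, *Krt8*, *Krt18*, *Krt19*, *Sox9* and *Sprr1a*. *Sprr1a* varied most, at 2020, 611 and 622 CPM in its WT cells and 684, 8.12 and 258 CPM in its KO cells, so KO replicate 2 lay below IC-like cells. Thinned to 1000 UMIs, 27.3 to 100% of its WT cells and 0 to 7.14% of its KO cells held a *Sprr1a* UMI, from 2 WT cells in the thinnest library. *Krt8* was found in 87.8% of the cells, *Krt18* in 84.7%, *Krt19* in 75.5% and *Sox9* in 38.8%. Of the thick limb genes, *Umod* was at 2851 to 7915 CPM in the 6 libraries, and *Slc12a1* was at 948 to 2465 CPM in 5 libraries and at 0 in WT replicate 1, which had 2 such cells. *Aqp2* was at most 126 CPM.

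The injury lists were also prominent there, on pooled cells. *Klf6* was at 5077 CPM against 1141 in LOH-like and 1302 CPM in PC-like cells, *Hbegf* at 3238 against 209 and 597, *Atf3* at 2811 against 772 and 520, and *S100a6* at 1877 against 1.79 and 7.51 CPM. *Cdkn1a*, which halts the cell cycle, was at 794 against 34.6 and 111 CPM, while the division genes *Mki67*, *Top2a* and *Cdk1* were at 2.18 CPM or less. Of the 5 urothelial markers, *Upk1b*, *Upk2* and *Upk3a* were at 0, and *Psca* was at 7.64 to 53.7 CPM in WT mice and 191 to 326 CPM in KO cells. The remaining marker of that list is not given here.

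**Figure D5:**
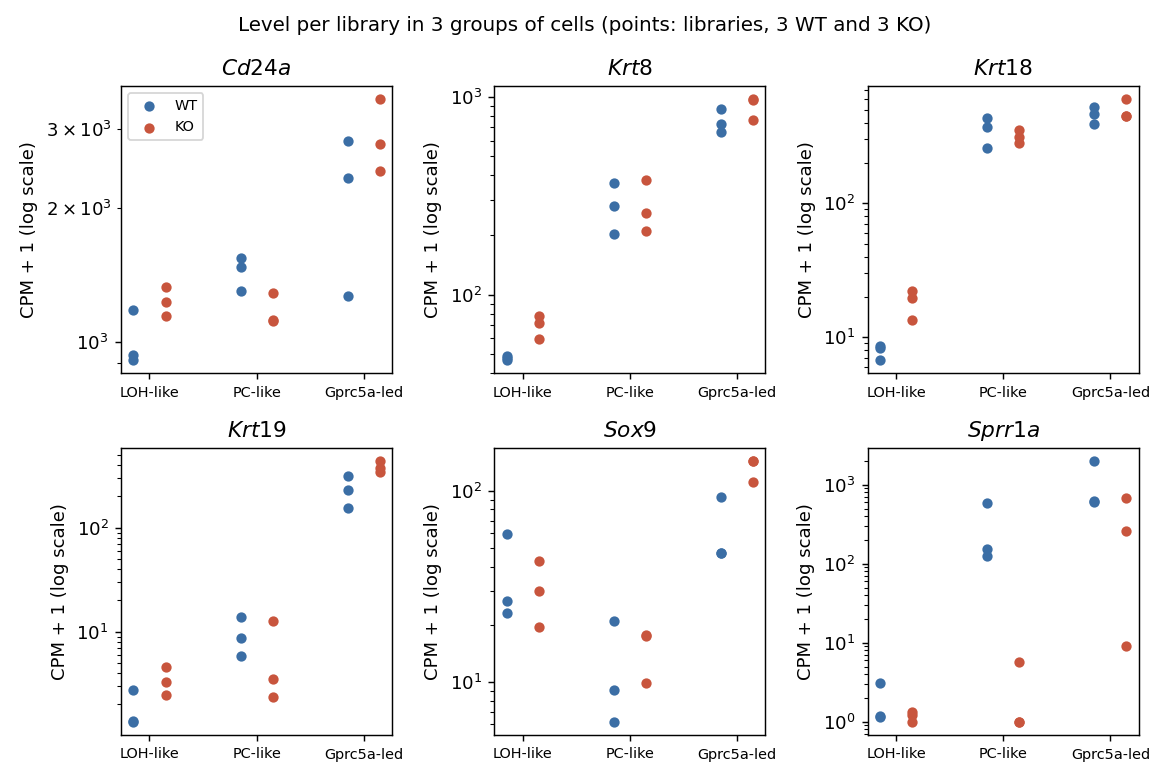
CPM + 1 (log scale) per library of 6 genes in LOH-like cells, PC-like cells and the *Gprc5a*-led cluster, WT in blue and KO in red, 3 libraries each. *Krt19* lies between 154 and 441 CPM in the cluster and far lower in PC-like and LOH-like cells, and *Sprr1a* in PC-like cells separates the genotypes.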

How the data were processed

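Single cells of the renal cortex were profiled with BD Rhapsody whole-transcriptome libraries, 1 per mouse. The authors aligned reads to mm10 with the BD Rhapsody pipeline and deposited UMI counts per gene and barcode, which are raw and not normalized. The submitters' processing notes also name Scanpy 1.8. How reads of near-identical copies, such as *Krt8*, *Krt18* and *Cd24a* pseudogenes or the Sprr2 family, were assigned was not given in the sources used here.

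Barcodes with 500 to 60000 UMIs, 200 to 8000 genes and at most 50% mitochondrial UMIs were kept. The automatic Scrublet threshold marked under 0.5% of cells per library, so the top 6% of scores were removed. Cells were clustered with scanpy 1.11.5 (Python 3.11.15) from 2000 variable genes, 50 principal components, 15 neighbours and Leiden resolution 1, giving 29 clusters named from fixed markers. Clusters with no name were not tested. Counts were summed per library and class, with at least 10 cells in each library, filtered with filterByExpr (minimum count 10) and tested with edgeR 4.0.16 (R 4.3.3, TMM factors). DESeq2 1.42.0 was an alternative. Shares of cells were compared with exact permutation tests, two-sided. In data simulated for LOH-like cells, edgeR recovered 154 of 194 genes changed by 2-fold (79.4%), of 10648 genes, with 6 false calls. Every simulated gene had the same dispersion. The recovered share therefore does not carry over to smaller classes or to genes with a wide spread such as *Sprr1a*. Each library was 1 mouse, so p-values measure the spread between 3 mice a group. Intervals and floors cover counting error only.

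The 10 genes, the lists and the tests were chosen with earlier results of these data known. The text names every one of the 10 genes, the 3 genes most like each in profile with a mean of at least 5 CPM, and at most 3 called genes per direction and class from the 8 lists, except for some genes that are not reported here. Other choices tried were RLE factors, no filter, leaving out each library, the replicate number or *Xist* as a block, other mitochondrial limits and classes from marker scores. Coordinates are those of GENCODE genes on GRCm38.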

Additional observations from a re-analysis of the deposited data

Results flagged for a closer look

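The effect of genotype differed between classes of tubule cells for 6 gene and class pairs, by the interaction term in edgeR (adjusted p below 0.05). Values are log2 fold changes of KO over WT in the first class minus those in LOH-like cells. For principal cells against LOH-like cells the difference was −0.542 for *Cd24a*, −0.956 for *Clu*, −1.46 for *Krt18* and −2.35 for *Spp1*, and −5.77 for *Sprr1a*, whose size rests on few counts. For connecting tubule cells it was −0.937 for *Krt18*. The difference for *Spp1*, *Clu* and *Krt18* between principal and LOH-like cells was called in 9 of 9 alternatives each. These did not include other definitions of the classes or a run without both libraries that carried *Xist*. That of *Cd24a* was lost with DESeq2 (adjusted p = 0.107) and without WT replicate 2, KO replicate 1 or KO replicate 2 (0.0618 to 0.131). That of *Krt18* in connecting tubule cells was lost with DESeq2 (0.202) and without replicate 2 or 3 of WT and without replicate 1 or 3 of KO mice (0.113 to 0.216), and that of *Sprr1a* without KO replicate 3 (0.13). Groups of 3 libraries were not tested for outlying samples.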

How the results depend on the processing

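The 9 calls by class became 26 with no filter on low counts, 4 with a 30% mitochondrial limit, and 5 to 9 when 1 library was left out, with 5 without KO replicate 3. Calls over all genes moved as well. In LOH-like cells 473 became 947 with no filter and 26 with the 30% limit, and in PC-like cells 222 became 654 and 175. Over all cells 0 calls became 1 with DESeq2, where 5.36% of all genes were called. Over the tubule 0 became 2 with no filter, 1 with DESeq2, and 0 to 1 with 1 library left out (1 without WT replicate 1). There 2.73% of all genes were called with no filter, 4.61% with DESeq2 and 0.693% without WT replicate 1. The 6 differences between classes became 15 with no filter and 4 to 7 with 1 library left out. With no filter 1.58 to 2.69% of all genes differed in the 3 comparisons. Of 216 alternatives of single fold changes, 158 stayed called in the same direction, 51 lost the call and 7 turned direction. With a 30% mitochondrial limit the log2 change was −0.0162 for *Krt8* in LOH-like cells, and −1.27 for *Clu* and −0.275 for *Spp1* in macula densa-like cells. In principal cells that of *Clu* was 0.173 with no mitochondrial limit and 0.203 with marker scores, and that of *Spp1* 0.407 and 0.106. The causes were not tested. Leaving out doublet removal, 30 principal components and the use of principal cells without *Sprr1a* were chosen after the data were seen. Without both libraries that carried *Xist*, 6 calls by class remained in number.

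Samples with the same replicate number deviated together with r = 0.215, −0.0619 and 0.212, so the numbers were not taken to pair the mice. With the replicate block the calls by class were 7, and 0 over the tubule and over all cells. With 3 mice a group, 11 to 240 PCT-like cells per library and few cells with *Sprr1a*, small differences were not detectable.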

Other observations

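Beyond the epithelial classes, *Lcn2* was the gene of the injury lists with the lowest adjusted p when all cells were summed. It was at 14.9, 14.8 and 13.1 CPM in WT mice and 131, 141 and 113 CPM in KO mice (log2 3.18 ± 0.08 SE, edgeR adjusted p = 1.57e-05). *Cd44*, a hyaluronan receptor, rose by 1.85 on the log2 scale (edgeR adjusted p = 0.0390), and *S100a6*, a calcium-binding protein, by 1.79 (edgeR adjusted p = 0.00377). *Lhx1*, a nephron transcription factor, fell by 0.87 (log2; edgeR adjusted p = 0.0444). Neutrophil-like cells, a type known to make *Lcn2*, numbered 0, 31 and 19 in the WT and 225, 68 and 55 in the KO libraries. Their part in these sums was not tested. Over the tubule classes *Lcn2* rose from 13.9 to 16.4 CPM in WT to 34.4 to 89.9 CPM in KO mice (edgeR adjusted p = 0.0408) and *Anxa3* rose by 0.93 (log2), while *Top2a*, a gene of dividing cells, fell by 2.12 (log2), from 2.60 to 4.14 CPM to 0.426 to 1.16 CPM.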
